A study of Mus musculus with 6 samples.

Results

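The 10 genes described here are 5 transcription factor genes of epithelial-mesenchymal transition (EMT), Zeb1, Zeb2, Snai1, Snai2 and Twist1, and 5 genes of the mesenchymal extracellular matrix, Fn1, Sparc, Col5a1, Fbn1 and Mmp2. They were taken by symbol from the 23284 gene names of the count files, and all 10 were found. The RNA-seq libraries were made from poly(A) RNA of preSC cells, a mouse line that the labels call a precursor of small cell lung cancer. Every library carried a lentiviral pLKO.1-TRC vector. In the 3 shCrebbp libraries the vector expressed hairpin 1, 2 or 5 against Crebbp, the gene of the histone acetyltransferase CREB-binding protein. The 3 control libraries were 2 with the empty vector (shEmpty 1 and shEmpty 2) and 1 with a non-silencing hairpin (shNS). Each hairpin was thus sequenced once, the libraries all come from 1 cell line, and the labels do not say whether they came from separate cultures, so the p-values rest on a spread between these libraries that may be technical.

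EMT is the switch in which epithelial cells lose their junctions and take up the features of migratory mesenchymal cells. The ZEB, SNAI and TWIST proteins are transcription factors that bind E-box sequences, and ZEB and SNAI proteins repress Cdh1, the E-cadherin gene, and other epithelial genes. Mesenchymal cells in turn secrete fibronectin, fibrillar collagens and fibrillin and the proteases that remodel them. In epithelial cells the microRNAs of the miR-200 family silence Zeb1 and Zeb2 messenger RNA, and ZEB proteins repress the miR-200 genes.

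The sequences below show the elements named in this background. Promoters were available for 6 of the 10 genes (Zeb2, Snai1, Twist1, Sparc, Col5a1 and Fbn1, with 9 start sites between them), from RefSeq on build GRCm38.p6. The E-box CACCTG, which ZEB and SNAI proteins bind, was searched in windows of 300 bases (250 before to 50 after the start) on both strands, where it reads CACCTG or CAGGTG. It was present at the start sites of Snai1 and Sparc and in 20.2% of all 32851 promoter windows. A match describes the letters only and shows no binding. Snai1 and Sparc are printed because they are the members with the letters, as the 250 bases before the start, extended past it to the end of the motif for Sparc, with the E-box in capitals. The Snai1 stretch lies at chr2:167537945-167538194 on the plus strand with the motif at -126, and the Sparc stretch at chr11:55420076-55420330 on the minus strand with the motif at -1, both counted from the start site.
Snai1: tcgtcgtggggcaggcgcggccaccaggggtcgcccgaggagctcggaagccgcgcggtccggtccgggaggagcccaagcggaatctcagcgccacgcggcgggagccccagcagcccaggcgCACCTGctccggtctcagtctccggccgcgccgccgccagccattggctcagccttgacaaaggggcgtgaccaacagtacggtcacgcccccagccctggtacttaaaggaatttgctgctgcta
Sparc: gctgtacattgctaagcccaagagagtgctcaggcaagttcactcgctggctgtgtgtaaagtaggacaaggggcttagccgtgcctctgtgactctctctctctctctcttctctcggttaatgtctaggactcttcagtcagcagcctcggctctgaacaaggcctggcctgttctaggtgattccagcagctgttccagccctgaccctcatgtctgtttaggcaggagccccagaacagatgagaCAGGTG

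The 5 mature miR-200 family members of RefSeq fall into 2 groups by seed (bases 2 to 8, in capitals), 3 with AAUACUG and 2 with AACACUG. One of each group is shown because both groups pair with Zeb1 and Zeb2 messenger RNA. No reads were counted for the 5 precursor genes in any of the 6 libraries. Poly(A)-selected libraries do not capture mature microRNAs, so the levels of the miR-200 family were not measured.
miR-200b-3p: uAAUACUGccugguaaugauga
miR-200a-3p: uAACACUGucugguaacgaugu

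Reads counted in genes ranged from 13622020 to 14651158 in shCrebbp libraries and from 13687770 to 19804949 in control libraries, so that 1 CPM (counts per 1000000 reads, TMM-normalized) stood for 13.6 to 19.6 reads. The targeted gene Crebbp was lower in all 3 shCrebbp libraries (46.2, 58.3 and 48.9 CPM with hairpins 1, 2 and 5) than in shEmpty 1, shEmpty 2 and shNS (66.2, 69.6 and 69.4 CPM), and its log2 fold change of -0.42 ± 0.10 (SE) missed the threshold (edgeR adjusted p over all tested genes = 0.0999, DESeq2 adjusted p = 0.0163). The 8 neuroendocrine markers were all among the tested genes, with 4 positive and 4 negative fold changes, a median log2 fold change of 0.02 and 0 called by edgeR. Calca, the calcitonin and CGRP gene, stood at 875 ± 267 CPM in shCrebbp and 1803 ± 209 CPM in control libraries (SD, n = 3 each). It missed the threshold in edgeR (adjusted p = 0.0558) and was called lower by DESeq2 (adjusted p = 2.07e-05). Calca and Chga lay wholly below the controls (as did 11% of all tested genes), and Chgb and Ncam1 wholly above (as did 11.4%). Endothelial markers summed to 0.885 to 1.71 CPM in shCrebbp and 1.39 to 1.52 CPM in control libraries, led by Pecam1 and Tek. Leukocyte markers summed to 4.29 to 5.66 CPM in shCrebbp and 3.47 to 6.04 CPM in control libraries, mostly Cd68 (3.93 CPM in shCrebbp and 4.05 CPM in control libraries on average), and Ptprc had no read in the shCrebbp libraries and 2 reads in all in the controls.

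None of the 10 genes passed the threshold (an adjusted p of 0.05 with edgeR's quasi-likelihood test, over all tested genes) in shCrebbp against control, and 2 of them, Fn1 and Zeb1, had all 3 shCrebbp libraries above all 3 controls. Fn1, which encodes fibronectin, was 2.56-fold higher by its fitted value, and Zeb1 1.30-fold. Zeb2, Snai2 and Sparc were high in some of the hairpin libraries only, Zeb2 with hairpins 2 and 5, Snai2 with hairpin 5 and Sparc with hairpin 1. Snai1 had the only negative fold change among the tested members, and Twist1 and Fbn1 were close to undetected in both groups. In counts from a whole culture, more cells of a kind and more RNA per cell cannot be told apart.

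The filter on low counts left 7 of the 10 members among 13390 tested genes, all but Twist1, Sparc and Fbn1. With edgeR's quasi-likelihood test 0 of the 7 passed an adjusted p of 0.05, while 1.25% of all tested genes did (0.276% higher and 0.978% lower). An unadjusted p under 0.05 was reached by Fn1 and Zeb1, 2 of the 7, and by 16.5% of all tested genes. DESeq2 called 1 member, Fn1, higher, where it called 2.22% of all genes higher and 3.23% lower. Limma-voom called 0 members with or without library quality weights. Of all 13390 tested genes it called 159 without the weights and 682 with them. Fold changes were positive in 6 of the 7 and negative in 1. Their median on the log2 scale was 0.38, against 0.01 over all tested genes. Of the 7, 2 lay wholly above the controls and 0 below. Over all tested genes 11.4% lay wholly above and 11% below.

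**Figure D1:**
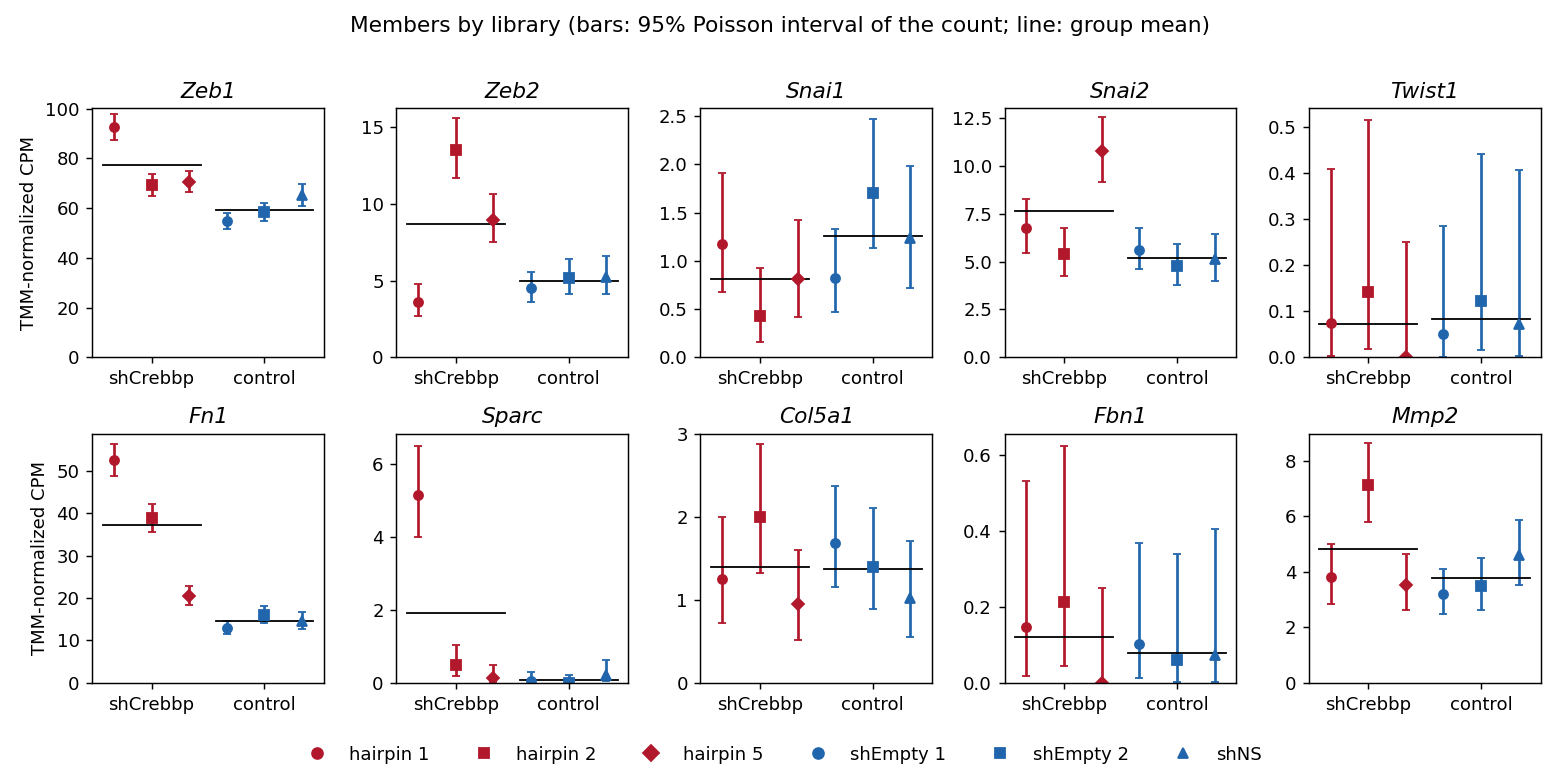
TMM-normalized CPM of the 10 genes (y axes, from 0) in each shCrebbp library and each control library, with the 95% Poisson interval of the count as the bar and the group mean as the line. Zeb1 and Fn1 sit above all controls with each hairpin, Zeb2 is low with hairpin 1 and high with hairpins 2 and 5, and Sparc reaches 5.14 CPM with hairpin 1 alone.

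Zeb1 encodes a zinc finger and homeodomain repressor of epithelial genes and was the most abundant of the transcription factor members. It stood at 92.6, 69.2 and 70.6 CPM with hairpins 1, 2 and 5, against 54.7, 58.4 and 65.2 CPM in shEmpty 1, shEmpty 2 and shNS. The groups did not overlap, but hairpin 2 and shNS lay within counting error of each other (95% Poisson intervals of 64.9 to 73.7 and 61.0 to 69.6 CPM). The log2 fold change was 0.38 ± 0.13 (SE), with a 95% interval of 0.08 to 0.69 and an edgeR adjusted p of 0.203. Hairpin 1 had the largest ratio to the control mean, 0.64 on the log2 scale, with 0.22 and 0.25 for hairpins 2 and 5, while the controls lay between -0.12 and 0.14. Without hairpin 1 the log2 fold change of Zeb1 was 0.23 (edgeR adjusted p = 0.236).

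Zeb2, the paralogue of Zeb1, differed between hairpins more than between groups. Its levels were 3.60 CPM with hairpin 1, 13.5 CPM with hairpin 2 and 8.98 CPM with hairpin 5, against 4.50, 5.18 and 5.26 CPM in shEmpty 1, shEmpty 2 and shNS. Hairpin 1 was thus below every control and hairpins 2 and 5 above every control, and the Poisson intervals of the 3 hairpins (2.66 to 4.76, 11.7 to 15.6 and 7.52 to 10.7 CPM) did not overlap. That of hairpin 1 overlapped the intervals of the controls, which together ran from 3.61 to 6.62 CPM. Over all 6 libraries the log2 fold change was 0.81 ± 0.41 (95% interval -0.13 to 1.75, edgeR adjusted p = 0.376). Without hairpin 1 it was 1.18 ± 0.21 and passed the threshold (edgeR adjusted p = 0.0377). That fit called 368 genes of any kind, against 168 with all 6 libraries. Without hairpin 2 the log2 fold change of Zeb2 was 0.34 (edgeR adjusted p = 0.661). Zeb1 ran the other way among the hairpins, highest with hairpin 1.

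Snai2, which encodes the repressor SLUG, was highest with hairpin 5. It stood at 6.76, 5.41 and 10.8 CPM with hairpins 1, 2 and 5, against 5.62, 4.76 and 5.11 CPM in shEmpty 1, shEmpty 2 and shNS. The hairpin 5 library lay above all others with a Poisson interval of 9.14 to 12.6 CPM, whereas hairpin 2 fell among the controls. The log2 fold change was 0.57 ± 0.27 (95% interval -0.05 to 1.18, edgeR adjusted p = 0.345), and 0.23 without hairpin 5 (edgeR adjusted p = 0.644).

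Snai1, which encodes SNAIL, was far less abundant, with 16, 6 and 12 reads for hairpins 1, 2 and 5 and 16, 28 and 17 reads in shEmpty 1, shEmpty 2 and shNS. In CPM these were 1.18, 0.427 and 0.817 with the hairpins, against 0.817, 1.71 and 1.24 in the controls. The groups overlapped, with hairpin 2 lowest and shEmpty 2 highest. The log2 fold change was -0.63 ± 0.45, and its 95% interval of -1.66 to 0.40 spans a fall and a rise (edgeR adjusted p = 0.549). It ranged from -0.99 without hairpin 1 to -0.33 without hairpin 2.

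Twist1, a basic helix-loop-helix factor gene of mesoderm, had 1, 2 and 0 reads with hairpins 1, 2 and 5 and 1, 2 and 1 reads in shEmpty 1, shEmpty 2 and shNS. The 0 reads of hairpin 5 allow up to 0.204 CPM (3 reads). No difference was detectable at this depth. Intervals and limits of this kind cover counting error only.

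Among the matrix genes Fn1 had the largest tested difference. Fibronectin is the adhesive glycoprotein of the pericellular matrix, and its gene is a standard readout of EMT. It stood at 52.4, 38.8 and 20.5 CPM with hairpins 1, 2 and 5, against 13.0, 16.0 and 14.6 CPM in shEmpty 1, shEmpty 2 and shNS. All hairpin libraries lay above the controls, and they formed 3 steps whose Poisson intervals (48.6 to 56.4, 35.6 to 42.2 and 18.2 to 22.9 CPM) did not overlap. The log2 fold change was 1.36 ± 0.30 (95% interval 0.67 to 2.05, higher in 3 of 3 hairpin libraries) and missed the threshold (edgeR adjusted p = 0.0784), while 1.75% of all tested genes had a fold change of that size or larger in either direction. It passed with DESeq2 (log2 fold change 1.36, adjusted p = 0.000353) and in edgeR without hairpin 5 (1.64 ± 0.16, adjusted p = 0.0140), and the adjusted p ranged from 0.000353 to 0.330 over 16 alternatives. Both settings called more genes of any kind, 730 with DESeq2 and 389 in edgeR without hairpin 5, against 168 in edgeR with all libraries.

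Sparc, which encodes a collagen-binding matricellular protein, was detected mainly in 1 library. It had 70, 7 and 2 reads with hairpins 1, 2 and 5, against 1, 0 and 3 reads in shEmpty 1, shEmpty 2 and shNS. With hairpin 1 this was 5.14 CPM (95% Poisson interval 4.01 to 6.50), whereas the interval of hairpin 2 (0.200 to 1.03 CPM) overlapped that of shNS (0.0452 to 0.640 CPM). The gene did not pass the filter. Fitted without a filter it had a log2 fold change of 4.41 ± 1.62 (edgeR adjusted p = 0.304). Each hairpin was sequenced once, so the value of hairpin 1 stands without a replicate.

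Col5a1 and Mmp2 showed no difference between groups beyond their spread. Col5a1, which encodes a chain of the fibril-nucleating collagen V, stood at 1.25, 1.99 and 0.953 CPM with hairpins 1, 2 and 5, against 1.69, 1.40 and 1.02 CPM in shEmpty 1, shEmpty 2 and shNS, and the groups overlapped throughout. Its log2 fold change was 0.01 ± 0.37, and the 95% interval of -0.83 to 0.86 leaves room for changes of either sign (edgeR adjusted p = 0.991). Mmp2, the gelatinase A gene, stood at 3.82, 7.12 and 3.54 CPM with hairpins 1, 2 and 5, against 3.22, 3.48 and 4.60 CPM in shEmpty 1, shEmpty 2 and shNS. Only hairpin 2 was above all controls. The log2 fold change was 0.36 ± 0.32 (95% interval -0.37 to 1.10, edgeR adjusted p = 0.640), and -0.028 without hairpin 2. Fbn1, the fibrillin-1 gene of elastic microfibrils, had 2, 3 and 0 reads with hairpins 1, 2 and 5 and 2, 1 and 1 reads in the controls, too few to compare.

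**Figure D2:**
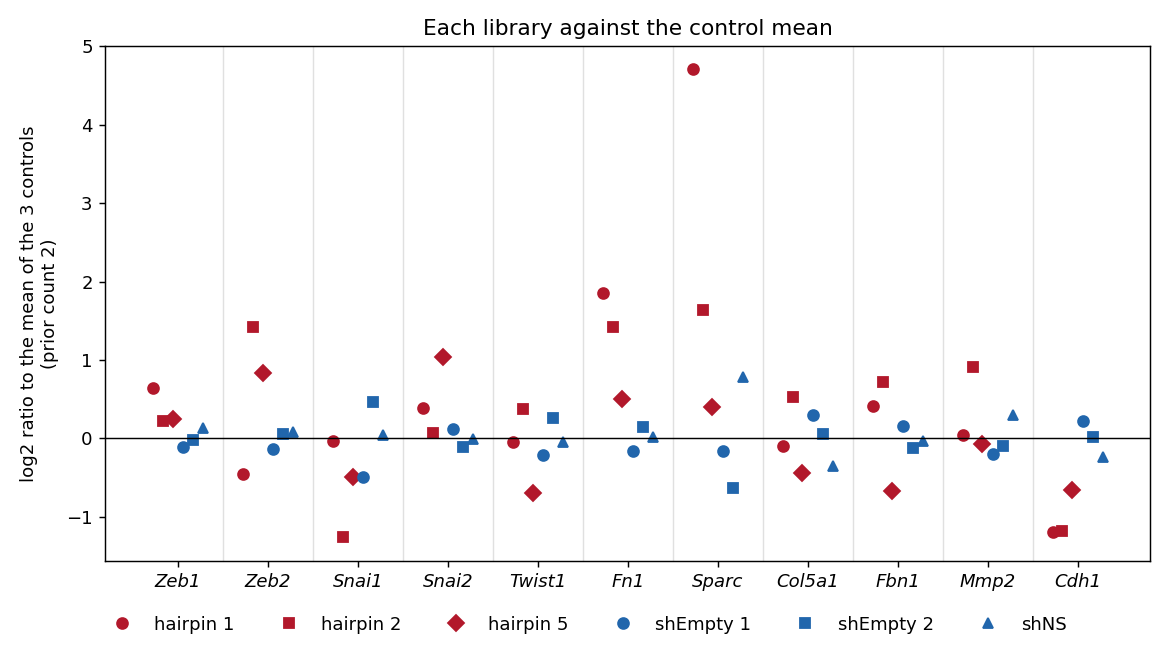
Log2 ratio of each library to the mean of the 3 controls (y axis, prior count of 2) for the 10 genes and Cdh1, with red symbols for the hairpins and blue symbols for the controls. Sparc (4.71) and Fn1 (1.85) lead in hairpin 1, Sparc (1.64), Zeb2 (1.42) and Fn1 (1.42) in hairpin 2, and Snai2 (1.04) and Zeb2 (0.84) in hairpin 5; ratios of Sparc, Twist1 and Fbn1 rest on few reads.

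Read by hairpin rather than by group, the members differed in the library where each was highest or lowest, as some library must be for every gene. By their point values, Fn1, Sparc and Zeb1 were at their highest of all 6 libraries with hairpin 1, while Zeb2 was at its lowest. With hairpin 2, Zeb2, Mmp2 and Col5a1 were at their highest and Snai1 at its lowest. With hairpin 5, Snai2 was at its highest, Zeb2 was also above the controls, and Fn1 was the nearest to control levels of the 3 hairpins. Ratios to the control mean of at least the same size were common for some of these. With hairpin 1 they occurred in 1.06% (Fn1), 14.5% (Zeb1) and 23.9% (Zeb2) of tested genes. With hairpin 2 the shares were 2.54% (Zeb2), 6.86% (Mmp2), 17.8% (Col5a1) and 3.39% (Snai1), and with hairpin 5 2.57% (Snai2). The hairpin libraries also differed from each other over all genes (chi-square over degrees of freedom 21.5 to 29.9). No hairpin has a replicate, so these differences were not tested.

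The size of the members' fold changes can be set beside that of Cdh1. Cdh1 fell to 282, 285 and 411 CPM with hairpins 1, 2 and 5, against 753, 657 and 548 CPM in shEmpty 1, shEmpty 2 and shNS (log2 fold change -1.0 ± 0.17, 95% interval -1.40 to -0.61, edgeR adjusted p = 0.0361). The call of Cdh1 was lost without any 1 of the controls (edgeR adjusted p = 0.185, 0.200 and 0.0634 without shEmpty 1, shEmpty 2 and shNS) and without hairpin 2 (0.0827). The fold change of Fn1 was larger in size by its point value and opposite in sign, but the intervals of the 2 sizes overlapped and Fn1 did not pass the test. The fold change of Zeb1 was smaller in size than that of Cdh1 by its point value, and these intervals overlapped as well (0.08 to 0.69 for Zeb1). Hairpins 1 and 2 had both the lowest Cdh1 and the highest Fn1, and hairpin 5 stood nearest the controls in both genes. The same library was nearest the controls over all genes. Its chi-square over degrees of freedom against them was 12.8 to 15.1, with 20.3 to 41.3 for hairpins 1 and 2. A link between Cdh1 and Fn1 was not tested.

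**Figure D3:**
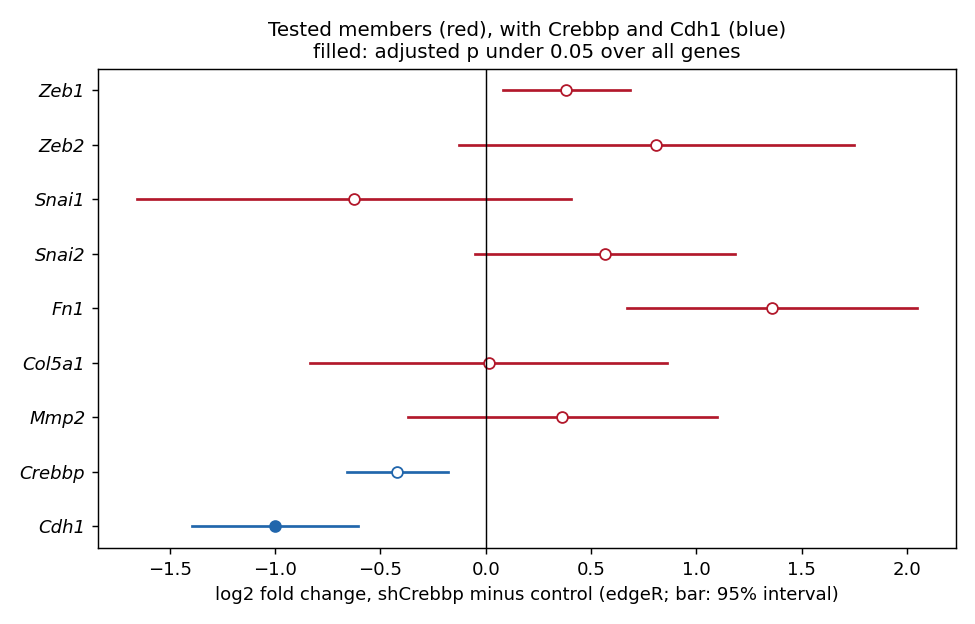
Log2 fold change of shCrebbp minus control (x axis) with its 95% interval from edgeR, for the 7 tested members in red and for Crebbp and Cdh1 in blue. The filled symbol (Cdh1) passed an adjusted p of 0.05 over all genes, and the open symbols did not; the intervals of Zeb1 (0.08 to 0.69) and Fn1 (0.67 to 2.05) lie above 0 before adjustment.

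Levels of different genes were compared per length, as CPM per kb of the longest transcript in the GENCODE M21 annotation. Zeb1 led the members in both groups, with 13.4 in shCrebbp and 10.2 in control libraries, while Cdh1 stood at 73.6 in shCrebbp and 147 in control libraries. In the controls the order after Zeb1 was Snai2 (2.55), Fn1 (1.75), Mmp2 (1.22), Snai1 (0.774), Zeb2 (0.546) and Col5a1 (0.163), followed by Twist1, Sparc and Fbn1 at 0.0504 or less. The library ranges of Mmp2 and Snai1, of Snai1 and Zeb2, of Twist1 and Sparc, and of Sparc and Fbn1 overlapped, so these neighbours did not differ beyond their spread. In shCrebbp libraries Fn1 (4.48) stood above Snai2 (3.78) on average, but only with hairpins 1 and 2. With the median transcript length in place of the longest, Zeb1 still led, and Fn1, Mmp2 and Zeb2 moved above Snai2 in the controls. Cdh1 exceeded Zeb1 per kb 3.99-, 5.40- and 7.63-fold with hairpins 1, 2 and 5, against 18.0-, 14.7- and 11-fold in shEmpty 1, shEmpty 2 and shNS. It exceeded Fn1 10.1-, 13.8- and 37.7-fold with the hairpins, against 109-, 77.3- and 70.4-fold in the controls. By this measure E-cadherin messenger RNA was above that of every member in every library. With the median transcript lengths the excess over Zeb1 was smaller, 1.28-, 1.74- and 2.45-fold with hairpins 1, 2 and 5, against 5.81-, 4.74- and 3.54-fold in the controls. That over Fn1 was 4.67-, 6.37- and 17.4-fold with the hairpins, against 50.4-, 35.7- and 32.5-fold in the controls.

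**Figure D4:**
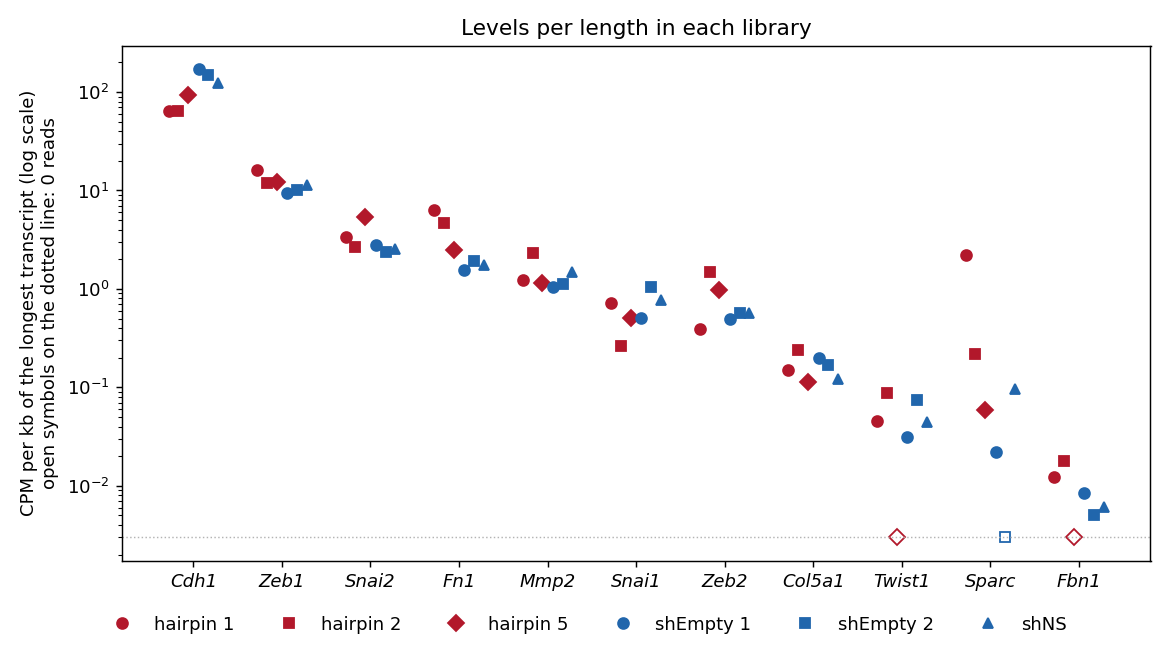
CPM per kb of the longest transcript (y axis, log scale) in each library for the 10 genes and Cdh1, ordered by their control mean, with red symbols for the hairpins, blue symbols for the controls and open symbols for 0 reads. Cdh1 is highest in each library, Zeb1 leads the members between 9.42 and 16.0, and Sparc spans the widest range, from 0 reads in shEmpty 2 to 2.24 with hairpin 1.

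The 2 kinds of control vector were compared as a measure of the background between control libraries. In shNS against shEmpty the fitted log2 differences of the 7 tested members lay between -0.59 (Col5a1) and 0.46 (Mmp2), with 0.01 for Fn1 and 0.21 for Zeb1. No gene passed an adjusted p of 0.05 in this edgeR fit (0 of 13390, 0%), and 0.747% of genes had an unadjusted p under 0.05. The single shNS library was assumed to vary like the others, and with 1 library in an arm the test has little power to find a difference between the vectors.

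The other genes of the programme were taken from 4 lists. In edgeR 0 of their 47 tested members passed in either direction, where 1.25% of all tested genes did. Of 14 other EMT transcription factor genes 10 were tested. Their median log2 fold change was -0.11, with 4 positive and 6 negative. Over all tested genes 16.5% had an unadjusted edgeR p under 0.05, and among these 10 it was reached by 0 higher and 2 lower genes (DESeq2 called 0). One of these was Snai3, a SNAI paralogue (2.94, 1.71 and 2.65 CPM with hairpins 1, 2 and 5, against 3.47, 4.08 and 4.89 CPM in shEmpty 1, shEmpty 2 and shNS, log2 fold change -0.76 ± 0.28, edgeR adjusted p = 0.231). Sox4, a high-mobility-group factor gene, stood at 188 ± 61.7 CPM in shCrebbp and 169 ± 19.1 CPM in control libraries. Twist2 had no read in any library.

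There were 30 other structural matrix genes, of which 16 were tested; their median log2 fold change was 0.22, 10 positive and 6 negative. An unadjusted p under 0.05 was reached by 6 higher genes and 1 lower gene, DESeq2 called 3 higher and 1 lower, limma-voom called 0, and limma-voom with quality weights called 1 higher. The shares over all tested genes were 16.5% for an unadjusted p under 0.05, and 2.22% higher and 3.23% lower for DESeq2. Of all 13390 tested genes limma-voom called 159, and with quality weights 273 higher and 409 lower. The 4 genes with all hairpin libraries above all controls (11.4% of all tested genes) were Fbn2, Fstl1, Mfap2 and Spock1, and none lay wholly below. Fstl1, a secreted follistatin-like protein gene, stood at 2.72, 3.49 and 1.63 CPM with hairpins 1, 2 and 5, against 1.18, 0.671 and 0.584 CPM in shEmpty 1, shEmpty 2 and shNS (log2 fold change 1.65 ± 0.40, edgeR adjusted p = 0.0974). Mfap2, a microfibril-associated glycoprotein gene, stood at 9.41, 5.91 and 4.08 CPM with the hairpins, against 2.55, 3.23 and 3.21 CPM in the controls (log2 fold change 1.11 ± 0.32, edgeR adjusted p = 0.143). By the mean over all 6 libraries the most abundant genes of the list were Thbs1 and Dcn, whose groups overlapped, closely followed by Spock1, a testican proteoglycan gene (40.1 CPM in shCrebbp and 32.1 CPM in control libraries on average, edgeR adjusted p = 0.221). Thbs1, the thrombospondin-1 gene, stood at 216 ± 63.7 CPM in shCrebbp and 294 ± 61.6 CPM in control libraries (edgeR adjusted p = 0.388), and Dcn, the decorin gene, at 11.2, 32.0 and 61.7 CPM with hairpins 1, 2 and 5, against 43.4, 38.5 and 35.5 CPM in the controls.

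Matrix proteases, their inhibitors and crosslinking enzymes made up 26 genes, of which 16 were tested; the median log2 fold change was 0.06, 9 positive and 7 negative. Over all tested genes 16.5% had an unadjusted edgeR p under 0.05, and DESeq2 called 2.22% higher. Limma-voom with quality weights called 409 of all 13390 tested genes lower. In this list an unadjusted p under 0.05 was reached by 1 higher and 1 lower gene, both tissue inhibitors of metalloproteinases. Timp3 stood at 7.42, 8.26 and 3.88 CPM with hairpins 1, 2 and 5, against 3.01, 2.99 and 2.55 CPM in shEmpty 1, shEmpty 2 and shNS (log2 fold change 1.19 ± 0.31, edgeR adjusted p = 0.108, called higher by DESeq2). Timp2 stood at 83.7 ± 12.8 CPM in shCrebbp and 111 ± 8.14 CPM in control libraries (log2 fold change -0.41 ± 0.12, edgeR adjusted p = 0.159, called lower by limma-voom with quality weights, as was Bmp1). Plod3, a collagen lysyl hydroxylase gene, stood at 87.1 ± 4.76 CPM in shCrebbp and 82.5 ± 5.92 CPM in control libraries.

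The mesenchymal cytoskeleton and adhesion genes numbered 11, of which 5 were tested; their median log2 fold change was -0.03. Cdh2, the N-cadherin gene, stood at 264, 222 and 239 CPM with hairpins 1, 2 and 5, against 214, 210 and 203 CPM in shEmpty 1, shEmpty 2 and shNS, without overlap but with a log2 fold change of 0.21 ± 0.09 (edgeR adjusted p = 0.283). Tagln, the transgelin gene, was lower in all 3 hairpin libraries (2.66 ± 0.432 CPM in shCrebbp and 3.68 ± 0.354 CPM in control libraries, edgeR adjusted p = 0.387), and Itgb1, the integrin beta-1 gene, stood at 507 ± 85.5 CPM in shCrebbp and 518 ± 27.8 CPM in control libraries. Vim, the vimentin gene, named here after its values were seen, had 2, 17 and 6 reads with hairpins 1, 2 and 5 and 1, 5 and 7 reads in the controls, low counts in all 6 libraries for a filament that defines mesenchymal cells.

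**Figure D5:**
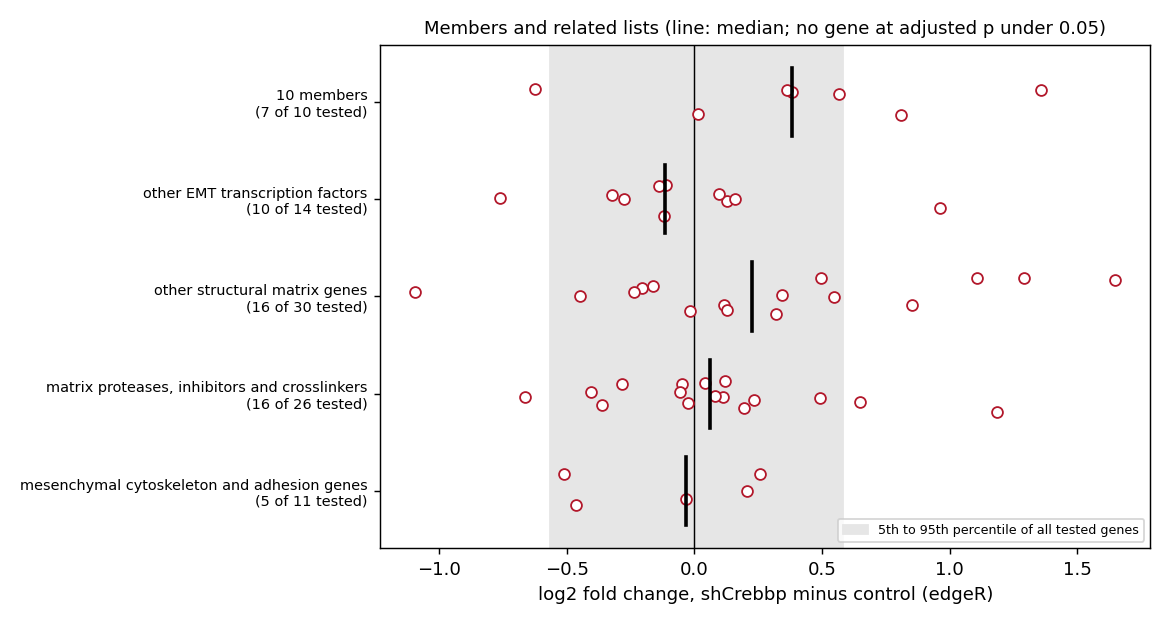
Log2 fold change of shCrebbp minus control (x axis, edgeR) for each tested gene of the 10 members and the 4 related lists, with the list median as a line and the 5th to 95th percentile of all tested genes in grey. No gene shown passed an adjusted p of 0.05; the medians lie at 0.38 for the members, -0.11 and 0.22 for the other transcription factors and structural matrix genes, 0.06 for the remodelling genes and -0.03 for the cytoskeleton and adhesion genes.

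Fibroblast markers were counted because fibroblasts express all 5 matrix members. Of 10 markers 4 were tested and 0 were called by edgeR, which called 1.25% of all tested genes. Another 6 were below 1 CPM in every library, with Col3a1 and Dpt at 0 reads. The list summed to 15.6 to 65.5 CPM in shCrebbp and 39.5 to 47.0 CPM in control libraries, mostly Dcn, which the structural matrix list also holds, followed by Pdgfra (1.76 ± 0.966 CPM in shCrebbp and 1.33 ± 0.241 CPM in control libraries). The lowest sum was that of hairpin 1, the library with the highest Fn1 and Sparc. It followed Dcn alone (11.2 CPM with hairpin 1, against 43.4, 38.5 and 35.5 CPM in shEmpty 1, shEmpty 2 and shNS). The other markers together were not lowest in that library. Pdgfra, for one, stood at 1.40 CPM with hairpin 1, against 1.23, 1.16 and 1.61 CPM in the controls. Thy1, a surface glycoprotein gene of the same list, was instead highest in reads with hairpin 1, with 20, 15 and 13 reads for hairpins 1, 2 and 5, against 12, 10 and 4 reads in shEmpty 1, shEmpty 2 and shNS (log2 fold change 1.13 ± 0.40, edgeR adjusted p = 0.211). All hairpin libraries of Thy1 lay above all controls, as did those of 11.4% of all tested genes. The part of fibroblasts in the values of Fn1 and Sparc was not tested. Epithelial markers, a list that includes Cdh1, had 4 of 5 tested genes called lower and 0 higher by edgeR (0.978% and 0.276% of all tested genes). They summed to 1105 to 1568 CPM in shCrebbp and 2358 to 2942 CPM in control libraries, with Krt8 the most abundant and Epcam and Cdh1 next, at similar levels in each group.

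The genes whose profile over the 6 libraries was most like that of Zeb1 and Fn1, the most abundant tested member of each role, were found by the Euclidean distance of mean-centred log2 CPM over 10725 other genes. For Zeb1 they were Ddx25, an RNA helicase gene (distance 0.126), Lrp8, a reelin receptor gene (0.136), and Klhl20, a Cullin-3 adaptor gene (0.155), against a median distance of 0.671. For Fn1 they were Itpr3, a calcium release channel gene (0.216), Ptk7, a planar polarity receptor gene (0.224), and Cd1d1, a lipid antigen presenting molecule gene (0.389), against a median of 1.85. Ptk7 stood at 40.1, 28.9 and 17.6 CPM with hairpins 1, 2 and 5, against 10.9, 11.6 and 11 CPM in shEmpty 1, shEmpty 2 and shNS, the same stepwise order as Fn1. With so many candidates some close profiles are found for any gene, and the likeness is a description of these libraries.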

How the data were processed

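Per the labels' protocols, messenger RNA was isolated with oligo(dT) beads from 500 ng of total RNA and made into libraries with a NEBNext Ultra kit. Per the submitters' processing notes, build mm9 and the tools TopHat2 2.0.12, HTSeq 0.6.1 and bcl2fastq 1.8.2 were used. What the authors deposited are unnormalized read counts for each gene symbol in each library; of annotation, strand setting and overlap rule nothing is given in the sources used here. Without strand, reads of 5 members (Zeb1, Zeb2, Fn1, Col5a1, Fbn1) cannot be told apart from those of antisense genes that GENCODE M21 places over their exons. Of these antisense genes, only those over Zeb1 (Gm10125) and Fn1 (Apol7d) are among the gene names of the counts. The 5 HTSeq summary rows (24.8% to 28.9% of counts) were left out.

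Tests on these counts used edgeR 4.0.16 under R 4.3.3 (TMM, filterByExpr, robust quasi-likelihood fit, group as the only term), with Benjamini-Hochberg adjustment over all tested genes and a threshold of 0.05. The SE is the fold change over the root of F. Errors of CPM are SDs. Scripts were tested on simulated data. No library was a duplicate (chi-square over degrees of freedom within groups 4.25 to 29.9). Alternatives were DESeq2 1.42.0, limma-voom (limma 3.58.1), other normalizations and filters, a replicate block and leaving out each library.

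The members and lists were chosen with earlier results of these data known. The genes named beside the members are, per list, those called or the 2 with the smallest p, the 2 most abundant, and the 3 nearest profiles; Vim, Thy1, Spock1, Smoc1, Plod2, P4ha2 and Fbln1, and genes named for a count of 5 or fewer, were named after their values were seen. Some genes that this rule picks are not reported here. Sequences and transcript lengths come from GRCm38 references and were joined by symbol only.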

Additional observations from a re-analysis of the deposited data

How the results depend on the processing

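The count of called members, 0 of 7 tested, became 1 with DESeq2 and with the replicate block (Fn1 in both), and lay between 0 and 1 when 1 library was left out (Zeb2 without hairpin 1, Fn1 without hairpin 5). It was 0 in the other 8 settings with all 6 libraries. Over all genes, 168 calls became 730 with DESeq2, 682 with limma-voom with quality weights, 427 with the replicate block, and between 0 and 389 when 1 library was left out. It was 0 without shEmpty 1 or shEmpty 2, where 1332 and 1238 genes had an unadjusted p under 0.05. The replicate block joined libraries by number, which for shCrebbp is the hairpin number; only 2 numbers are shared, deviations of same-numbered libraries correlated at 0.05 and 0.04 across genes, and nothing shows that they pair the libraries. Fn1 had a log2 fold change of 1.65 in that fit (edgeR adjusted p = 0.0139). Fold changes of Zeb1, Zeb2, Snai2 and Fn1 stayed positive and that of Snai1 negative in all 16 alternatives. Col5a1 turned negative with limma-voom (-0.032), with quality weights (-0.24), and in part of the range of -0.34 to 0.22 with 1 library left out, and Mmp2 with 1 library left out ranged from -0.028 (without hairpin 2) to 0.54. The median log2 fold change over all genes was at most 0.026 under every scaling tried. The log2 ratio of Sparc with hairpin 1 was 4.71 with a prior count of 2 and 5.87 with 0.5. Twist1 and Fbn1, with 0 to 3 reads per library, are limited by depth.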

Other observations

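Some matrix genes outside the 10, picked after their values were seen and not tested by hairpin, were high in some of the hairpin libraries only. Plod2, a collagen lysyl hydroxylase gene, stood at 33.6, 11.2 and 12.5 CPM with hairpins 1, 2 and 5, against 11.3, 11 and 14.2 CPM in shEmpty 1, shEmpty 2 and shNS. P4ha2, a collagen prolyl hydroxylase gene, stood at 64.2, 27.2 and 19.1 CPM with the hairpins, against 20.4, 25.8 and 32.6 CPM in the controls. Both were thus highest with hairpin 1, as Sparc was. Smoc1, a gene of the SPARC family, had 9, 49 and 6 reads with hairpins 1, 2 and 5 and 5, 4 and 9 reads in the controls, and was high with hairpin 2 alone. Fbln1, the fibulin-1 gene, ranked the hairpins as Fn1 did, with 19.8, 13.1 and 5.72 CPM for hairpins 1, 2 and 5, against 3.93, 6.22 and 5.62 CPM in shEmpty 1, shEmpty 2 and shNS (log2 fold change 1.29 ± 0.41, edgeR adjusted p = 0.173), and hairpin 5 lay among the controls.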
